A study of Mus musculus with 5 samples.

Results

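Acyl-CoA thioesterases (Acot enzymes) split fatty acyl-CoAs into free fatty acid and coenzyme A. They act against the acyl-CoA synthetases, which join the 2 parts, and so set how much acyl-CoA a compartment holds. Liver has different members in the cytosol, in mitochondria and in peroxisomes, the organelles that also oxidise fatty acids. In rodent liver, several members are known targets of the nuclear receptor PPARalpha, which bezafibrate, a fibrate drug, activates. Described here are the 7 genes Acot1, Acot2, Acot3, Acot4, Acot8, Acot12 and Acot13, chosen by their symbols, of 13966 genes in the table. All 7 had reads in each library.

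The 5 libraries hold RNA of liver hepatocytes of outbred ICR mice, sorted by how brightly a probe that reports fatty acid oxidation fluoresced. Bezafibrate-treated mice gave a negative, a positive and a high gate, and control mice without bezafibrate a negative and a positive gate. The labels name no age, sex, dose or number of mice, nor whether livers were pooled. Each group has 1 library, so there is no spread between replicates, treatment and mouse cannot be told apart, and each comparison describes these libraries. Values are normalised read counts as deposited. Intervals are exact 95% counting intervals from whole reads recovered from those values, and they leave out all variation between mice.

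The libraries held 5056884 to 7146578 reads, and 1 read was worth a normalised read count of 0.133 to 0.216. The 10 hepatocyte markers looked for were all present. Their summed normalised read count was 111087, 79872.5 and 87490.9 in bezafibrate negative, positive and high, against 49677 and 48339 in control negative and positive. Much of each sum was Alb, the highest marker, at 72188, 48208.5 and 54530 in those bezafibrate libraries, against 24303 and 23064 in control. Lists for Kupffer cells, sinusoidal endothelium, stellate cells, cholangiocytes, lymphocytes and erythroid cells with neutrophils summed to at most 112.5, and 6 of 10, 7 of 8, 7 of 8, 4 of 6, 1 of 7 and 2 of 6 of their genes had values here. The stellate list, led by Reln, summed to 31.0 to 40.9 in bezafibrate libraries and to 103.5 and 112.5 in control libraries. The ribosomal RNA precursor Rn45s held 10.5% to 18.5% of reads in bezafibrate libraries, against 34.8% and 36.3% in control libraries. Their part in the treatment differences below was not tested. In sorted bulk RNA, fewer cells that express a gene and less of its RNA per cell cannot be told apart.

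The members lie on 3 chromosomes of the mouse genome (GRCm38, GENCODE annotation). Acot2 (chr12:83987861-83993873), Acot1 (chr12:84009490-84018371), Acot4 (chr12:84038379-84048601) and Acot3 (chr12:84052144-84060402) follow each other on the plus strand of chromosome 12, ahead of Acot5 and Acot6. Acot12 (chr13:91741512-91786148, plus strand) and Acot13 (chr13:24817948-24831540, minus strand) are far apart on chromosome 13, and Acot8 (chr2:164792765-164804882, minus strand) is on chromosome 2. The chromosome 12 genes are close copies. The coding sequence of Acot2 starts with 123 bases that Acot1 lacks, and over the 1236 bases that then align without gaps the genes are 95.3% identical. Acot2 protein is known to enter mitochondria through its amino-terminal targeting sequence, while Acot1 protein stays in the cytosol. The coding starts are shown because the targeting sequence lies at this end. Capitals mark bases with no identical partner in the aligned copy.
Acot2, chr12:83987902-83988084, plus strand: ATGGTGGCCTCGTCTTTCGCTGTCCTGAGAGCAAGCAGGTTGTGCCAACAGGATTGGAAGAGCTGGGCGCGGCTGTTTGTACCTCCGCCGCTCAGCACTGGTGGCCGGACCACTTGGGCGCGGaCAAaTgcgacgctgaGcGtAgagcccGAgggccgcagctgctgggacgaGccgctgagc
Acot1, chr12:84009510-84009569, plus strand: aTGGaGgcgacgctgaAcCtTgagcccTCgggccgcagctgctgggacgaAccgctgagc

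This likeness bears on which gene a read is given to. Of the 150-base windows (the read length) in the longest coding transcript of Acot1, 12.4% occurred unchanged in another of the Acot genes compared, Acot5 and Acot6 included, and 9.84% occurred in Acot2. The share was 10.2% for Acot2 and 2.74% for Acot3, while Acot4, Acot8, Acot12 and Acot13 shared no such window. Values of Acot1 and Acot2 are therefore uncertain in part, and their sum is given beside them.

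Promoters of 6 members were available from RefSeq (GRCm38.p6). They were searched for the nuclear receptor element, a direct repeat, that PPARalpha is known to bind with its partner RXR, AGGTCANAGGTCA, or TGACCTNTGACCT on the other strand, over 250 bases before to 50 after the gene start. The closest stretch of each is shown with 14 flanking bases a side, so that the members can be set against their response to the drug. Capitals mark bases equal to the motif.
Acot12, chr13:91741397-91741437, plus strand: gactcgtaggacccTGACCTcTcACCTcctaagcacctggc
Acot4, chr12:84038352-84038392, plus strand: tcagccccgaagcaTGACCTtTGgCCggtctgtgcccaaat
Acot2, chr12:83987789-83987829, plus strand: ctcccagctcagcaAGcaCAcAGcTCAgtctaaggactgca
Acot3, chr12:84052125-84052165, plus strand: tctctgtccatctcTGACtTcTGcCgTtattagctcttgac
Acot1, chr12:84009273-84009313, plus strand: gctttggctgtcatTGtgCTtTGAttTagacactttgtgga
Acot8, chr2:164805085-164805125, minus strand: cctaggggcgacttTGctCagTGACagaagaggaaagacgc

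Acot12 matched 11 of the 12 fixed motif bases, as close as in 0.574% of the 27025 promoters searched. Acot4 matched 10, which 3.84% of promoters reached, and Acot2 and Acot3 matched 9, which 24.6% reached. Acot1 matched 8 and Acot8 matched 7, as 79.8% and 99.9% of promoters did at least. These are letter matches in a short window, not measured binding sites.

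Acot12, which is cytosolic and in rat liver is known to split acetyl-CoA, was by far the highest member in all 5 libraries. It had normalised read counts of 107.4, 113.3 and 108.1 in the negative, positive and high bezafibrate libraries, against 138.4 and 137.5 in control negative and positive. The 3 bezafibrate libraries all lay below both control libraries. Bezafibrate over control, Acot12 stood at 0.776-fold among negative cells (0.700 to 0.861) and at 0.824-fold among positive cells (0.740 to 0.918). Both ratios stayed below 1 under all 3 other scalings tried, at 0.649 to 0.913 and 0.761 to 0.951. The upper ends, from column totals, lay nearer 1 than the intervals above. No intervals were computed under other scalings. Between gates its ratios were 0.954 to 1.05, with intervals that all held 1.

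Acot1, the cytosolic long-chain enzyme known in rodents as strongly fibrate-inducible, showed little difference by treatment here. It had 13.6, 16.9 and 16.9 in bezafibrate negative, positive and high, from 102, 107 and 127 reads, and 12.3 and 15.7 in control negative and positive, from 60 and 73 reads. The groups overlapped. The bezafibrate over control ratio was 1.10 in the negative gate (0.795 to 1.54) and 1.07 in the positive gate (0.788 to 1.46), and it fell below 1 in both when libraries were scaled without Rn45s, at 0.923 and 0.990. The upper bounds leave room for a 1.54-fold and a 1.46-fold difference in these libraries. Summed with its copy Acot2, it was 1.27-fold (0.965 to 1.67) and 1.19-fold (0.912 to 1.57).

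**Figure D1:**
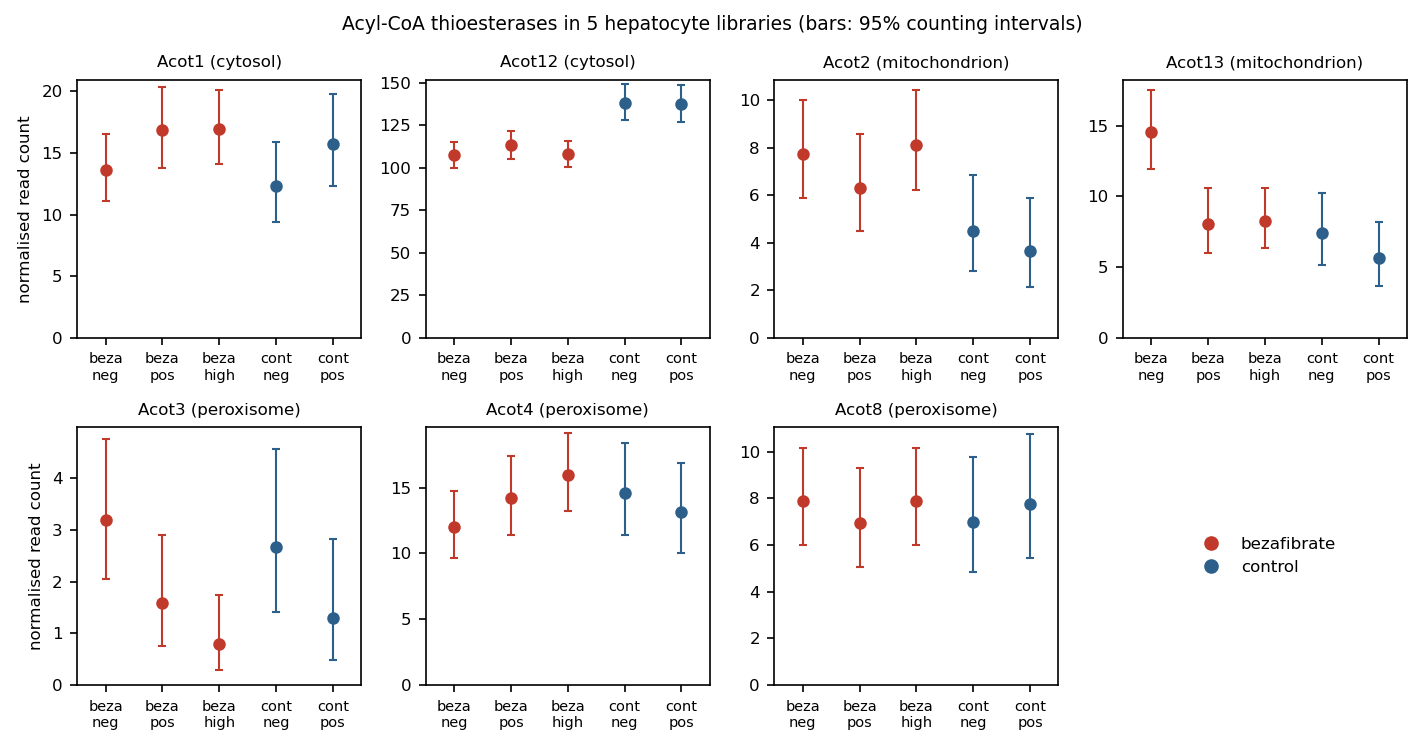
Normalised read count (y axis, from 0) of each thioesterase in the bezafibrate negative, positive and high and the control negative and positive libraries (x axis); points are single libraries and bars 95% counting intervals. Acot12 lies at 107.4 to 113.3 in bezafibrate and at 137.5 and 138.4 in control libraries, while Acot2 lies at 6.30 to 8.13 and at 3.66 and 4.52.

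The mitochondrial members were higher in bezafibrate libraries. Acot2, the matrix enzyme for long-chain acyl-CoA, had 7.73, 6.30 and 8.13 in bezafibrate negative, positive and high, against 4.52 and 3.66 in control negative and positive. All 3 bezafibrate libraries lay above both control libraries. Bezafibrate over control, its ratio was 1.71 among negative cells (1.03 to 2.94), while among positive cells it was 1.72 with an interval that held 1 (0.953 to 3.24). These ratios rest on 58 against 22 reads and on 40 against 17 reads. Under the other scalings they were 1.43 to 2.01 and 1.59 to 1.99, without intervals computed there.

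Acot13, a small thioesterase of the hotdog-fold family that associates with mitochondria, also called Them2, had 14.5, 8.04 and 8.26 in bezafibrate negative, positive and high. In control negative and positive it had 7.39 and 5.60. The bezafibrate negative library stood well above the other 4, which lay within 5.60 to 8.26. The bezafibrate over control ratio was 1.97 in the negative gate (1.34 to 2.95) and 1.43 in the positive gate (0.878 to 2.40). Scaled by column totals it was 2.31 in the negative gate, past the 2-fold mark. With scaling without Rn45s it was 1.64 there, and without the 100 highest genes 1.85, both below 1.97.

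The peroxisomal members did not share a direction by treatment. Acot4, the enzyme for succinyl-CoA and glutaryl-CoA in mouse peroxisomes, had 12, 14.2 and 16 in bezafibrate negative, positive and high, against 14.6 and 13.2 in control negative and positive. Acot8, a peroxisomal enzyme of broad acyl-CoA range, had 7.86, 6.93 and 7.86 against 6.98 and 7.76 in the same order. For both genes the groups overlapped, and the Acot8 values spanned only 1.13-fold over the 5 libraries. The ratios in the negative and positive gates were 0.823 (0.596 to 1.14) and 1.08 (0.771 to 1.52) for Acot4. They were 1.13 (0.727 to 1.77) and 0.894 (0.562 to 1.43) for Acot8, and both ratios of Acot8 and the positive-gate ratio of Acot4 crossed 1 with the scaling.

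Acot3, a peroxisomal long-chain enzyme, was the lowest member and did not pass the filter of a mean normalised read count of 5. It had 3.20, 1.58 and 0.799 in bezafibrate negative, positive and high, from 24, 10 and 6 reads, against 2.67 and 1.29 in control negative and positive, from 13 and 6 reads. Its bezafibrate over control ratios were 1.20 (0.587 to 2.56) and 1.22 (0.401 to 4.08). At this depth a difference of 2-fold either way was not detectable in the positive gate.

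**Figure D2:**
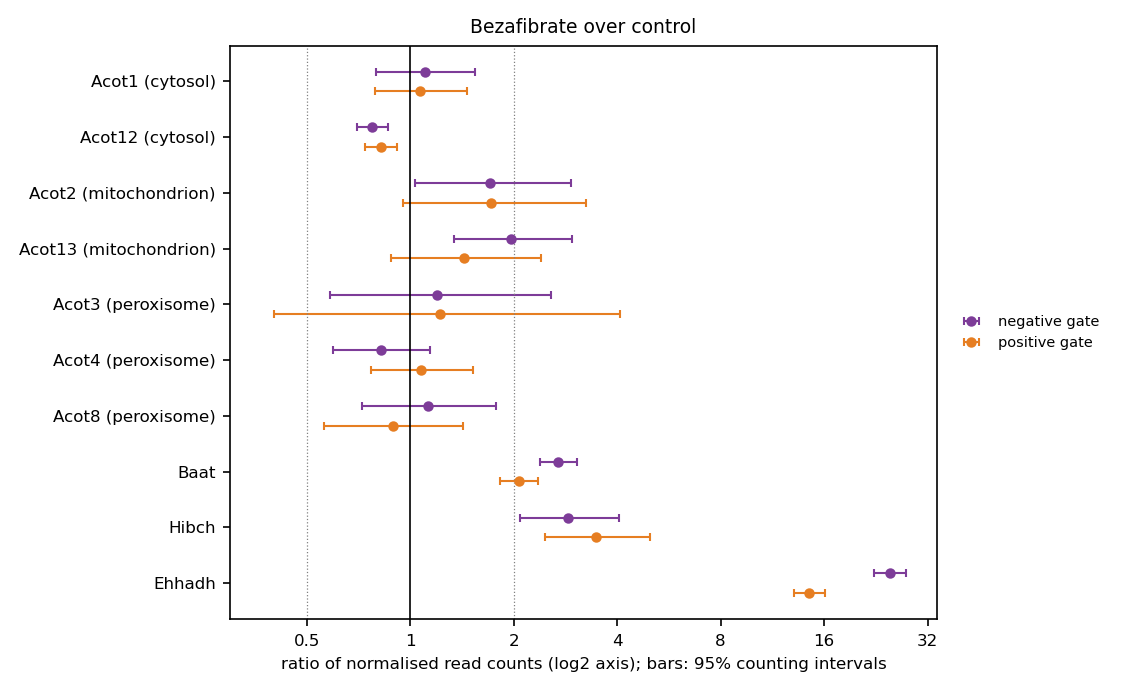
Ratio of normalised read counts, bezafibrate over control (x axis, log2 scale), for the 7 thioesterases, the related enzymes Baat and Hibch and the PPARalpha target Ehhadh, in the negative gate and in the positive gate; bars are 95% counting intervals and dotted lines 2-fold. The thioesterases lie between 0.776 and 1.97, while Ehhadh lies at 24.9 and 14.5.

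Set side by side, the summed treatment ratio was above 1 for mitochondria and below 1 for the cytosol. The peroxisomal intervals overlapped the cytosolic ones in both gates and the mitochondrial one in the positive gate. For mitochondria, Acot2 and Acot13, the summed normalised read count was 22.3, 14.3 and 16.4 in bezafibrate negative, positive and high, against 11.9 and 9.27 in control negative and positive. Bezafibrate over control, the pair stood at 1.87-fold among negative cells (1.38 to 2.57) and at 1.55-fold among positive cells (1.07 to 2.28), and between 1.43 and 2.20 under the other scalings in both gates. The cytosolic pair was 0.803-fold (0.728 to 0.886) and 0.849-fold (0.767 to 0.940), carried by Acot12, while Acot1 alone was 1.10-fold and 1.07-fold. The 3 peroxisomal members were 0.952-fold (0.749 to 1.21) and 1.02-fold (0.788 to 1.33), and crossed 1 with the scaling in both gates.

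Shares within a library do not depend on how libraries are scaled. Acot12 held 64.6% of the reads of the 7 genes in bezafibrate negative (61.9 to 67.2), 67.8% in bezafibrate positive (64.9 to 70.6) and 65.1% in bezafibrate high (62.4 to 67.7). It held 74.1% in control negative (71.1 to 76.9) and 74.4% in control positive (71.4 to 77.3), so the intervals of the treatments did not overlap. For every 100 reads of Acot12, Acot2 and Acot13 together had 20.7 in bezafibrate negative (17.4 to 24.5), 12.7 in bezafibrate positive (10.1 to 15.8) and 15.2 in bezafibrate high (12.4 to 18.4). In control negative and positive they had 8.61 (6.46 to 11.3) and 6.74 (4.83 to 9.18). The lowest bezafibrate library, positive, overlapped control negative in its interval. Of the reads of Acot1 and Acot2, Acot2 held 36.3%, 27.2% and 32.4% in bezafibrate negative, positive and high, against 26.8% and 18.9% in control negative and positive, with intervals that overlapped between treatments within each gate.

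**Figure D3:**
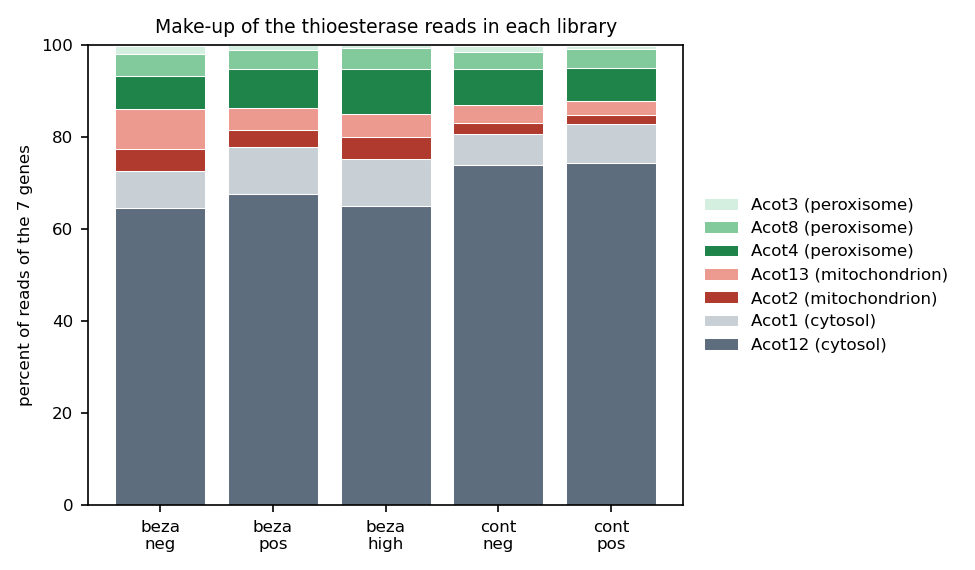
Percent of the reads of the 7 thioesterases (y axis, 0 to 100) that each gene holds in each library (x axis). Acot12 holds 64.6% to 67.8% in the bezafibrate libraries and 74.1% and 74.4% in the control libraries, and the mitochondrial bands are wider in bezafibrate.

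Per kilobase of the longest annotated transcript, the order of levels in control libraries was Acot12, Acot13, Acot8, Acot1, Acot4, Acot2 and Acot3. In bezafibrate libraries Acot2 came before Acot4, and Acot1 and Acot8 changed places between libraries. Acot12 had 35.1, 37.1 and 35.3 normalised read counts per kilobase in bezafibrate negative, positive and high, and 45.3 and 45.0 in control negative and positive. Acot13 came next at 20.2, 11.1 and 11.5 in the bezafibrate libraries, and 10.3 and 7.77 in the control libraries. Acot12 was 1.74-fold above Acot13 in bezafibrate negative (1.43 to 2.15) and 5.79-fold in control positive (3.91 to 8.93), the ends of the range over the 5 libraries. Acot8 and Acot1 could not be told apart in any library, nor could Acot13 and Acot8 in control positive, Acot4 and Acot2 in both control libraries, or Acot2 and Acot4 in bezafibrate positive. The place of Acot4 depends on its length, because its transcripts run to 6203 bases with a median of 647. With median lengths it came second in 4 libraries and after Acot13 in bezafibrate negative.

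The members were then set against all genes. Of the 6 members past the filter, 0 differed by 2-fold or more on the log2(value + 1) scale in either gate, where 16.1% of 8981 genes did in the negative gate and 7.87% in the positive gate. No p-value stands behind a count at 2-fold, and with 6 members a count of 0 is near those shares. In the negative gate 4 of the 6 members had a positive difference, against 51.4% of all genes, and in the positive gate 4 of 6 against 50.4%. With scaling without Rn45s it was 2 of 6 in both gates. Their median difference was 0.14 and 0.10 on that scale, while the median over all genes was 0.02 and 0.00. Scaling by column totals moved the median of all genes up by 0.22 and 0.20, and scaling without Rn45s moved it by -0.24 and -0.11. The 923 higher and 526 lower genes of the negative gate became 1434 and 271, or 551 and 1051, and 772 and 676 without the 100 highest genes. In the positive gate 446 and 261 became 815 and 134, or 339 and 366.

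Acot13 exceeded 87.0% of genes in its log2 difference in the negative gate and 78.4% in the positive gate, and Acot2 exceeded 80.3% and 86.4%. Acot12 stood at 27.9% and 28.3%, Acot4 at 33.3% and 57.1%, Acot1 at 55.5% and 56.4%, and Acot8 at 56.7% and 38.1%, each time negative gate first. The 8 bezafibrate-linked genes set beside them for scale were spread widely. Ehhadh, a bifunctional peroxisomal enzyme that oxidises fatty acids, had 1813 in bezafibrate negative against 72.9 in control negative, and Cyp4a14, a fatty acid omega-hydroxylase, had 2366 against 318.2. The peroxisomal thiolase gene Acaa1b, named after its values were seen, was 1.08-fold there and 0.907-fold with scaling without Rn45s. Pdk4, a kinase that inhibits pyruvate dehydrogenase, was 0.448-fold (0.269 to 0.737).

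**Figure D4:**
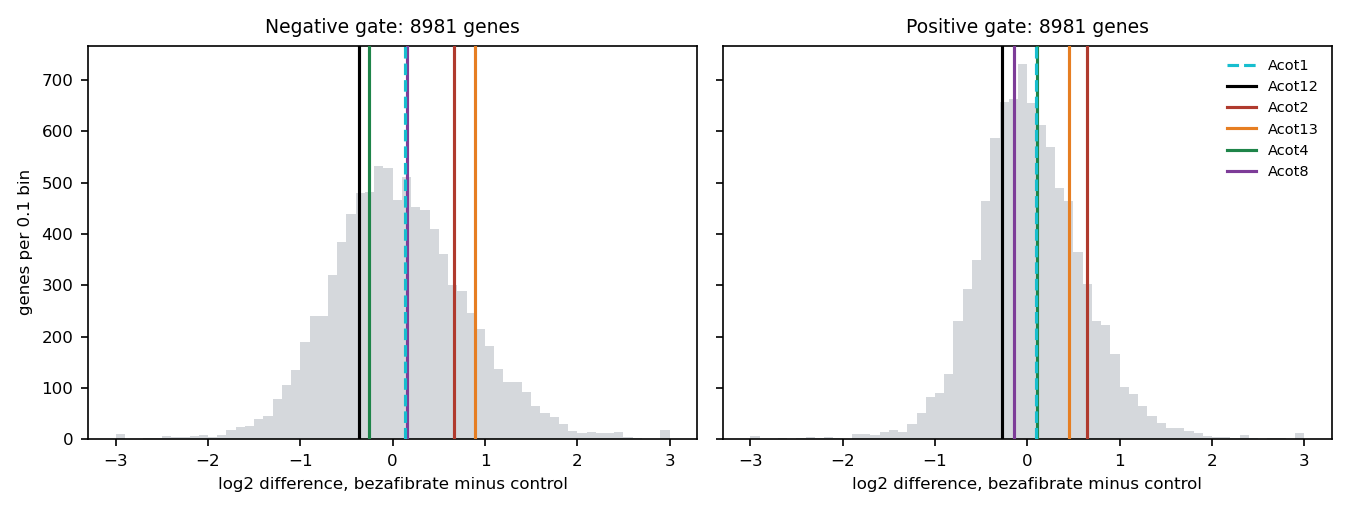
Number of genes (y axis) by log2 difference, bezafibrate minus control (x axis, bins of 0.1, values beyond 3 placed in the end bins), for 8981 genes in the negative gate (left) and the positive gate (right); coloured lines mark the 6 thioesterases past the filter. The members lie between -0.36 and 0.89 on the left and between -0.28 and 0.65 on the right.

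A model with gate and treatment as additive terms, leaving out the high gate, gave each gene a treatment term from 4 libraries. It was fitted with limma over all 8981 genes and has 1 residual degree of freedom, the gate by treatment difference. Limma combines that error with a trended prior from all genes, so each SE rests in large part on other genes. Acot2, for example, differed by 0.66 and 0.65 in the negative and positive gates, yet had an SE of 0.28. The fit does not measure the spread between mice, and it called 45.3% of all genes at a Benjamini-Hochberg adjusted p under 0.05. In limma, 2 of 6 members were called, which with so few members is near that background. Acot13 was higher in bezafibrate by 0.67 (SE 0.24, adjusted p = 0.0144) and Acot2 by 0.65 (SE 0.28, adjusted p = 0.0436). The 3 bezafibrate libraries lay above both control libraries for each gene, but they are gates of 1 treatment and not replicates of it. For Acot13 the intervals of bezafibrate positive (5.98 to 10.6) and control negative (5.18 to 10.2) overlapped almost wholly. Acot12 was at -0.32 (SE 0.15, adjusted p = 0.0675). Acot1, Acot4 and Acot8 were between -0.08 and 0.11, with limma adjusted p from 0.677 to 0.991.

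The calls of that fit turned on the scaling, the filter and the libraries used. Over the alternatives tried, the adjusted p ranged from 0.00873 to 0.0775 for Acot13 and from 0.00879 to 0.141 for Acot2, in limma and edgeR. Both calls were lost with scaling without Rn45s, at limma adjusted p of 0.0775 and 0.141, and there Acot12 was called lower by -0.50 (adjusted p = 0.00641). Acot12 ranged from 0.00641 to 0.161. With no filter, where more genes were tested, Acot2 was no longer called, at the same term of 0.65 (limma adjusted p = 0.0630). With 5 libraries, the high gate taken as positive, 3 of 6 members were called, Acot12 among them (limma adjusted p = 0.00936). In that setting 4772 of all 8981 genes were called, so 3 of 6 is near the background. That fit counts the bezafibrate positive and high gates as repeats of each other, though they are not replicates. With edgeR on the recovered reads, which was added with the data in view, Acot13 and Acot2 had adjusted p of 0.0118 and 0.0363, and 45.1% of genes were called.

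Between gates of the probe signal, only Acot13, Acot3 and Acot4 had an interval that left out 1, in bezafibrate comparisons. Of 6 members past the filter, 0 differed by 2-fold or more in each of the 4 gate comparisons. Among all genes the share was 0.334% for control positive over negative, 0.256% for bezafibrate positive over negative, 0.156% for high over positive and 0.267% for high over negative. In the control gates all 7 counting intervals held 1, and the ratios of positive over negative ran from 0.485 for Acot3 to 1.28 for Acot1. Positive differences were found for 2 of 6 members in control positive over negative, against 52.1% of all genes, and for 3 of 6 in bezafibrate positive over negative, against 48.4%. They were found for 5 of 6 in high over positive, against 49.9%, and for 4 of 6 in high over negative, against 47%. The bezafibrate comparisons share libraries and are not separate evidence.

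Acot13 was the member with the clearest gate difference under bezafibrate. It was 0.553-fold in positive over negative (0.389 to 0.778) and 0.569-fold in high over negative (0.409 to 0.784), while high over positive was 1.03 (0.698 to 1.52). The control gates gave 0.758 (0.440 to 1.29), and the bezafibrate gate ratio over the control gate ratio was 0.730 (0.399 to 1.33, an approximate counting interval). The gate difference was therefore not shown to depend on treatment. Rn45s was 1.75-fold in bezafibrate positive over negative beside it, and its part was not tested.

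Acot3 and Acot4 went in opposite directions across the bezafibrate gates. Acot3 had 24, 10 and 6 reads in negative, positive and high, and was 0.25-fold in high over negative (0.0835 to 0.627). Acot4 had 12, 14.2 and 16, and was 1.33-fold in high over negative (1.006 to 1.77). Control had no high gate to set against this. In positive over negative, Acot4 was 1.18-fold under bezafibrate and 0.902-fold in control (0.630 to 1.29). The bezafibrate gate ratio over the control gate ratio was 1.31 (0.836 to 2.06, an approximate counting interval). A gate difference of Acot4 was therefore not shown to depend on treatment. Acot1 was 1.28-fold in control (0.895 to 1.83) and 1.24-fold under bezafibrate (0.937 to 1.64), positive over negative, both with intervals that held 1.

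**Figure D5:**
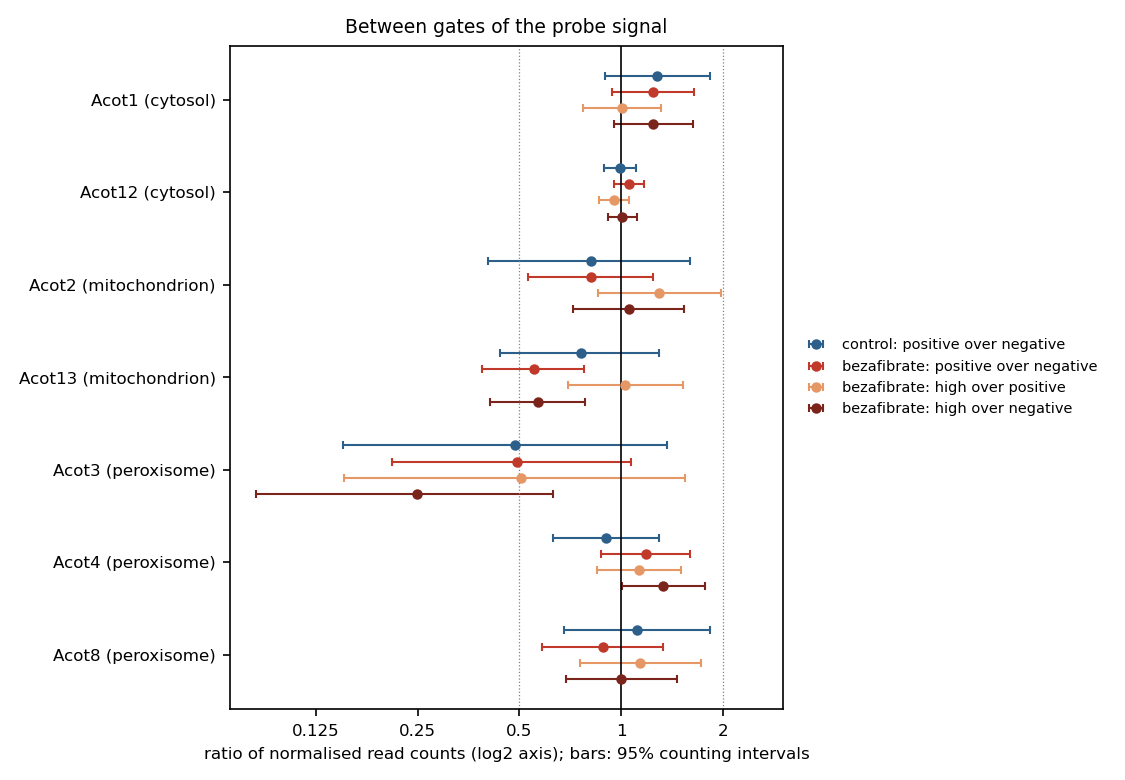
Ratio of normalised read counts between gates (x axis, log2 scale) for the 7 thioesterases, with 4 gate comparisons each; bars are 95% counting intervals and dotted lines 2-fold. Acot13 lies at 0.553 and 0.569 in the comparisons of bezafibrate positive and high with negative, and Acot12 lies within 0.954 to 1.05 in all 4.

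Some thioesterases outside the 7 members passed 2-fold by treatment. Of 14 listed, 10 had values, and 6 passed the filter. Among negative cells 3 of the 6 were higher in bezafibrate by 2-fold or more and 0 lower, and among positive cells 2 were higher and 0 lower. Over all genes, 16.1% and 7.87% passed 2-fold in either direction. The list was chosen with earlier results of these data known, so its counts are only a description. The median difference of the 6 was 0.77 and 0.47, against 0.02 and 0.00 over all genes. Baat, which joins bile acids to amino acids and is related in sequence to the chromosome 12 Acot genes, had 173.4 and 150.5 in bezafibrate negative and positive, against 64.3 and 72.6 in control negative and positive. Hibch, the mitochondrial hydrolase of valine breakdown, had 27.2 and 30.7 against 9.44 and 8.84. These are 2.70-fold (2.38 to 3.06) and 2.07-fold (1.83 to 2.35) for Baat, and 2.88-fold (2.08 to 4.06) and 3.48-fold (2.47 to 4.996) for Hibch.

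The lysosomal Ppt1 had 28.0 and 20.8 in bezafibrate negative and positive against 13.3 and 13.6 in control, and Ppt2 had 23.5 and 21.0 against 16.01 and 16.6. Them4 had 8.80 and 10.7 against 8.62 and 8.19, with a first ratio that crossed 1 with the scaling, and the cytosolic Acot7 had 7.46 and 5.201 against 5.13 and 6.68. The Acot7 ratio lay on either side of 1 in the gates, at 1.45-fold (0.893 to 2.43) and 0.778-fold (0.462 to 1.31). Acot6, Acot9, Acot11 and Them6 stayed below the filter, the Acot genes among them with values of 0.533 to 3.33.

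The acyl-CoA synthetases, which run the reverse reaction, were mixed. Of 24 listed, 17 passed the filter, of which 3 were 2-fold or more higher in bezafibrate in the negative gate and 1 in the positive gate, with 0 lower in both. These counts are near the 16.1% and 7.87% of all genes that passed 2-fold in either direction. The medians were 0.32 and -0.04, against 0.02 and 0.00 over all genes. Acsl1, the main long-chain synthetase of liver, had 1166 and 994.7 in bezafibrate negative and positive, against 1526 and 1542 in control negative and positive. Slc27a2, a very long-chain synthetase and transporter, had 1175 and 1273 against 941.4 and 924.2. Slc27a5, which activates bile acids ahead of Baat, was 2.67-fold (2.48 to 2.88) and 2.14-fold (1.99 to 2.32), and Aacs, which activates acetoacetate, was 0.636-fold (0.565 to 0.716) and 0.733-fold (0.645 to 0.833).

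For members past the filter, the genes of most similar profile were found among 4817 genes with a mean of 20 or more, by root mean square distance of centred log2 values over the 5 libraries. Nearest to Acot12 were Kdm5b (0.018), Usp7 (0.019) and Trib1 (0.023), and 600 genes lay within 0.1 of it. Nearest to Acot2 were Hpx (0.040), Ppp1cb (0.041) and St6galnac6 (0.048), and 40 genes lay within 0.1. Acot13 had 0 genes within 0.1, the nearest being Gorasp2 (0.115), Vps25 (0.128) and Slc46a1 (0.134). Acot1 was nearest to Cdc42ep1, Myh10 and Zkscan8, and Acot8 to Fam102a, Tmem248 and Ranbp9. Over 5 libraries such likeness is a description.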

How the data were processed

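The authors deposited 1 table of normalised signal per gene symbol for 5 libraries. Tools named in the submitters' processing notes are Trimmomatic 0.36, RSEM, Bowtie2 and edgeR, and the build is mm10, with no roles given. Which annotation and which scaling were used was not found there. Per the labels' protocols, ribosomal RNA was depleted and libraries were strand-specific read pairs. In every library 100% of values were whole multiples, within 0.001, of the smallest one above 0, taken as 1 read. These reads gave exact Clopper-Pearson intervals of ratios and shares.

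Differences are of log2(value + 1), which understates those of low genes, after a filter at a mean of 5. Members and lists were chosen with earlier results of these data known. Named genes are the members, each other thioesterase, the nearest 3 profiles of each member (those of Acot4 are not reported here), and the 2 highest and 2 most extreme genes of each list.

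The treatment fit used limma 3.58.1 in R 4.3.3 and, as an alternative, edgeR 4.0.16. The rest ran in Python 3.11.15 with scipy 1.17.1, pandas 2.3.3 and numpy 2.4.6. Of symbols, 96.0% were in the GENCODE annotation for GRCm38, the assembly also called mm10. Intervals were tried on simulated reads with counting error only, the error they assume, so variation between mice was not covered. Alternatives were pseudocounts, filters, scalings and transcript lengths.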

Additional observations from a re-analysis of the deposited data

How the results depend on the processing

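No paired analysis was possible because each group has 1 library and so no replicate numbers to pair. The limma fit does hold gate as a term. With 1 library a group, no replicate was left out. The count of members at 2-fold or more stayed at 0 in 40 of 42 settings over 6 comparisons. It became 1 in the negative gate, bezafibrate over control, with scaling by column totals, and 1 in bezafibrate high over negative with no filter, which lets in Acot3. Among all genes in the main setting, 16.1% and 7.87% passed by treatment and 0.156% to 0.334% between gates. A count of 0 members is near such shares, and at a mean of at least 20 only 1 member was tested. Counts of all genes at 2-fold or more moved with the pseudocount and filter, and their order below is bezafibrate over control in the negative and positive gates, control positive over negative, then bezafibrate positive over negative, high over positive and high over negative. With 5 times the pseudocount they were 944, 411, 3, 14, 8 and 9, against 1449, 707, 30, 23, 14 and 24. With a mean of at least 20 they were 875, 405, 3, 8, 4 and 7, where fewer genes were tested. With no filter they were 1086 in the positive gate and 232, 92, 133 and 133 between gates. The limma treatment term called 2699 of 4949 genes at a mean of at least 20, against 4072 of 8981, so the share called did not fall. Of members, 2 of 6 were called at first, and 1 of 7 with no filter, where 4442 of 13966 genes were called. At a mean of at least 20, 0 of the 1 member left was called. With scaling without Rn45s 1 of 6 was called, beside 4204 of 8981 genes. It was Acot12, while the first calls, Acot13 and Acot2, were lost under that scaling. That scaling also reversed the terms of Acot1 and Acot8, which were not called, to -0.061 and -0.16. Acot12 stood 3.25-fold above the next member in mean level per kilobase, and 7.16-fold with median transcript lengths. Of 210 single member differences under other scalings and pseudocounts, 206 stayed within their counting interval. Those intervals are wide for members of few reads, so this count does not measure how steady the differences are. By treatment, Acot1 and Acot8 changed sign between settings in both gates, and Acot4 in the positive gate. The cause of these shifts was not tested. Depth limits Acot3 most, with 59 reads over the 5 libraries, then Acot2 with 198, Acot8 with 232 and Acot13 with 284.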

Other observations

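Genes that make, break down or carry coenzyme A were also looked at. Of 15 genes of coenzyme A synthesis and breakdown past the filter, 3 were 2-fold or more higher in bezafibrate in the negative gate and 1 in the positive gate, and 0 were lower in either. Over all genes 16.1% and 7.87% passed 2-fold in either direction, so these counts are near the background. Vnn1, a pantetheinase, had 17.5 and 12.6 in bezafibrate negative and positive, against 2.67 and 3.23 in control negative and positive, or 6.54-fold (3.70 to 12.6) and 3.90-fold (2.23 to 7.29). Pank1, a pantothenate kinase at the entry to coenzyme A synthesis, was 1.94-fold (1.72 to 2.20) and 1.65-fold (1.45 to 1.88). Ppcdc, a later enzyme of that synthesis, was 0.513-fold (0.395 to 0.664) and 0.576-fold (0.441 to 0.751). Nudt7, the peroxisomal coenzyme A hydrolase, was 0.814-fold (0.767 to 0.864) and 0.666-fold (0.623 to 0.711).

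Of 12 genes of acyl-CoA binding and carnitine transfer, 3 were 2-fold or more higher in bezafibrate in the negative gate and 1 in the positive gate, with 0 lower, against the same 16.1% and 7.87% of all genes. The positive-gate count is at that background. Dbi, the acyl-CoA binding protein, had 170.0 and 100.2 in bezafibrate negative and positive, against 30.8 and 34.9 in control negative and positive. Crot, the peroxisomal carnitine transferase, was 1.32-fold (1.23 to 1.42) and 1.02-fold (0.946 to 1.11), and Cpt1a, its counterpart at the mitochondrial outer membrane, was 1.07-fold (1.006 to 1.14) and 1.004-fold (0.939 to 1.07). Both Cpt1a ratios and the second Crot ratio crossed 1 with the scaling. Cpt1b was 0.475-fold (0.335 to 0.671) and 0.731-fold (0.545 to 0.980). Of the 8 genes set beside these for scale, 6 passed 2-fold upwards and 0 downwards among negative cells. Among positive cells 3 passed upwards and 1 downwards, Pdk4. The shares of all genes were 16.1% and 7.87% in either direction. These 8 genes were chosen with earlier results of these data known, so their counts are only a description.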
